A study of Mus musculus with 8 samples.

Results

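The 10 genes described here mark T cells and cytotoxic lymphocytes: *Trac* and *Trbc2*, *Cd3d*, *Cd3e* and *Cd3g*, *Lck*, *Nkg7*, *Gzmb*, *Klrd1* and *Prf1*. They were found by symbol among the 54146 genes counted by bulk RNA-Seq in FCGR4+ and FCGR4- macrophages, and all 10 were present. The genes were picked with results of the comparison between these populations already known, so their fold changes are given as a description and not as a test. Both populations came from the epididymal white adipose tissue (eWAT) of the same 4 male C57Bl6 mice, which had eaten a high fat diet without limit for 24 weeks and then received 30% less food for 2 weeks. Each mouse gave 1 library per population, with 4 libraries per group, and no lean or unrestricted group was compared here. The sort took CD45+ CD11b+ cells and gated out cells carrying CD3, B220, Ly6G or SiglecF on their surface. The gate was thus set against T cells, B cells and granulocytes with Ly6G or SiglecF, and no marker of NK cells was in it. How completely the gated cells were removed from either population was not tested.

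Total counts ran from 35992794 to 66856746 per library, and 3 counts, taken as the floor of detection, equaled between 0.0439 and 0.0882 normalized CPM (counts scaled to library size with TMM factors). *Fcgr4*, the gene of the sorted receptor, checked the labels: its lowest FCGR4+ library stood at 138 CPM and its highest FCGR4- library at 82.8 CPM. Summed macrophage markers reached 30568 to 55038 CPM in FCGR4+ and 24409 to 48470 CPM in FCGR4- libraries. Most of this was *Lyz2*, at 16745 to 39771 and 14373 to 38617 CPM, beside *Adgre1*, *Csf1r*, *C1qb* and others. Of the 12 markers, 0 passed edgeR's quasi-likelihood test. At an unadjusted P under 0.05 and by DESeq2, which called 1.12% of all genes higher, 7 were higher in FCGR4+. The 10 genes together made up 20.1 to 75.2 CPM in FCGR4- and 4.58 to 13.9 CPM in FCGR4+ libraries, a small amount beside the macrophage markers.

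A T cell recognizes antigen through a receptor whose variable α and β chains are built by joining gene segments to a constant region, *Trac* for the α chain and *Trbc1* or *Trbc2* for the β chain. The chains cannot signal alone and are held in a complex with the CD3 proteins, whose tails are phosphorylated by the kinase LCK when antigen is bound. NK cells lack this receptor and read activating and inhibitory receptors instead, several of them lectin-like receptors that pair with CD94, the product of *Klrd1*. NK cells and cytotoxic CD8+ T cells kill by releasing granules in which perforin (*Prf1*) opens the way for granzymes such as granzyme B (*Gzmb*), with NKG7 in the granule membrane. Both kinds of lymphocyte live in adipose tissue and are known for their exchange of signals with its macrophages.

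Promoters are shown for 3 genes, 1 of the CD3 complex and 2 of the cytotoxic granule, because these genes stood lower together in FCGR4+ libraries. The sequences are RefSeq's on GRCm38.p6 (mm10), each 300 bases from 250 before to 50 after the start, 5′ to 3′ on the strand of the gene. Capitals mark matches on either strand to a RUNX word (TGTGGT), an ETS word (AGGAAG) or a T-box word (AGGTGTG), none of which overlap here. The windows are *Cd3d* at chr9:44981536-44981835 on the + strand, *Nkg7* at chr7:43436888-43437187 on the + strand and *Gzmb* at chr14:56262285-56262584 on the - strand.
Cd3d: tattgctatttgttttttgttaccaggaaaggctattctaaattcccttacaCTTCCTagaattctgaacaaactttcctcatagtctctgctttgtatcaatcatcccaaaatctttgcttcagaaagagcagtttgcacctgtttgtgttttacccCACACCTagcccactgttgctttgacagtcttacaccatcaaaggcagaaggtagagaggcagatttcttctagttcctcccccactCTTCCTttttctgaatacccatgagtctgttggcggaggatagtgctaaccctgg
Nkg7: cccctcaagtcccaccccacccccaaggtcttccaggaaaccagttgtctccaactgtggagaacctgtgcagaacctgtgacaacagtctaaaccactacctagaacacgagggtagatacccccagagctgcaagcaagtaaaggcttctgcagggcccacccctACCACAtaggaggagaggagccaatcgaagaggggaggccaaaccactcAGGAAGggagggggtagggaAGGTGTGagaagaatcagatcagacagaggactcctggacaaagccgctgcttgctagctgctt
Gzmb: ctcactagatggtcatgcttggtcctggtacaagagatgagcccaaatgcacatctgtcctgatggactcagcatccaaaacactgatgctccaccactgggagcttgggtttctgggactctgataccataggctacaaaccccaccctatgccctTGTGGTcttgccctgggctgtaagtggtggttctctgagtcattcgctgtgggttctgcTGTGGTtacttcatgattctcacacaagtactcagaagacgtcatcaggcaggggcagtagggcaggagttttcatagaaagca
The *Cd3d* window held ETS and T-box words, *Nkg7* held all 3 kinds and *Gzmb* held 2 RUNX words. Of the 10 genes, 7 matched the promoter table. They had 8 windows, *Lck* having 2. A RUNX word stood in 4 of the 8, against 16.8% of 32851 promoters, an ETS word in 6, against 35.4%, and a T-box word in 2, against 5.84%. The window of *Cd3g*, which starts at a short distance from *Cd3d* and runs the other way, held none of the words. A match to these letters is a description and does not show that a factor binds there.

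All 10 genes stood lower in FCGR4+ than in FCGR4- macrophages in 4 of 4 mice, which held for 10.4% of the 17095 genes tested. Their log2 fold changes (FCGR4+ over FCGR4-, edgeR's paired fit) ran from -4.62 to -1.90 with a median of -2.30, and the median of all tested genes was -0.00. All 10 passed the minimum for testing, 10 counts in 4 of the 8 libraries, although *Prf1* reached 10 counts in only 1 FCGR4+ and 3 FCGR4- libraries. Past the threshold of the whole table, an adjusted P value under 0.1, lay 8 of the 10, all but *Cd3e* and *Prf1*. Across all genes, 1.27% passed in either direction and 1.19% were lower. DESeq2, the tool of the study's methods, put all 10 past the same threshold, against 4.87% of all genes lower. Since the genes were chosen on this contrast, nothing is read from either count. In bulk RNA, fewer cells of a type and less RNA per cell cannot be told apart.

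*Trac* (chr14:54220521-54224206, + strand, with these and later gene coordinates on mm10) encodes the α chain constant region. Its level in FCGR4+ libraries of mice 1 to 4 was 1.03, 1.33, 1.53 and 0.249 CPM, and in FCGR4- libraries it was 5.23, 6.64, 3.10 and 0.951 CPM. The FCGR4- library of mouse 4 lay below 3 of the FCGR4+ libraries, so the groups overlapped, although within each mouse the FCGR4+ library was lower. The log2 fold change was -1.90 (SE 0.358). *Trbc2* (chr6:41546730-41548352, + strand), a β chain constant region, had 0.876, 1.14, 1.40 and 0.477 CPM in FCGR4+ and 7.84, 8.58, 6.04 and 2.06 CPM in FCGR4- libraries. These groups did not overlap, and the log2 fold change was -2.58 (SE 0.312). Of the 50-base words of *Trbc2*, 44.01% also occur in *Trbc1*, and read pairs mapping to both were counted at each. The split between these 2 genes is therefore uncertain, and a sum over both counts such pairs at each.

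The 3 CD3 genes sit side by side on chromosome 9 and encode the CD3 δ, ε and γ chains. *Cd3d* (44981786 to 44987339, + strand) had 0.657, 0.499, 1.10 and 0.104 CPM in FCGR4+ and 3.63, 3.91, 2.85 and 0.673 CPM in FCGR4- libraries, with a log2 fold change of -2.34 (SE 0.428). Its groups overlapped through mouse 4, whose FCGR4- value was under the FCGR4+ value of mouse 3. *Cd3e* (44998740 to 45009627, - strand) had 0.926, 1.29, 0.909 and 0.166 CPM in FCGR4+ and 3.67, 2.79, 2.38 and 1.76 CPM in FCGR4- libraries, with a log2 fold change of -1.90 (SE 0.473). *Cd3g* (44969572 to 44980431, - strand) had 0.590, 1.48, 0.925 and 0.207 CPM in FCGR4+ and 3.61, 4.56, 3.34 and 1.74 CPM in FCGR4- libraries, with a log2 fold change of -2.25 (SE 0.387). For *Cd3e* and *Cd3g* the lowest FCGR4- library stood above the highest FCGR4+ library. The per-mouse log2 ratio of *Cd3e* spread from -3.15 in mouse 4 to -1.09 in mouse 2.

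*Lck* (chr4:129548344-129573641, - strand), the kinase of the first step of receptor signaling, had 1.45, 2.91, 3.48 and 0.415 CPM in FCGR4+ and 11.01, 13.1, 7.54 and 1.80 CPM in FCGR4- libraries. The log2 fold change was -2.08 (SE 0.332). As with *Trac*, the FCGR4- library of mouse 4 fell inside the FCGR4+ range, between the values of mice 1 and 2.

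**Figure D1:**
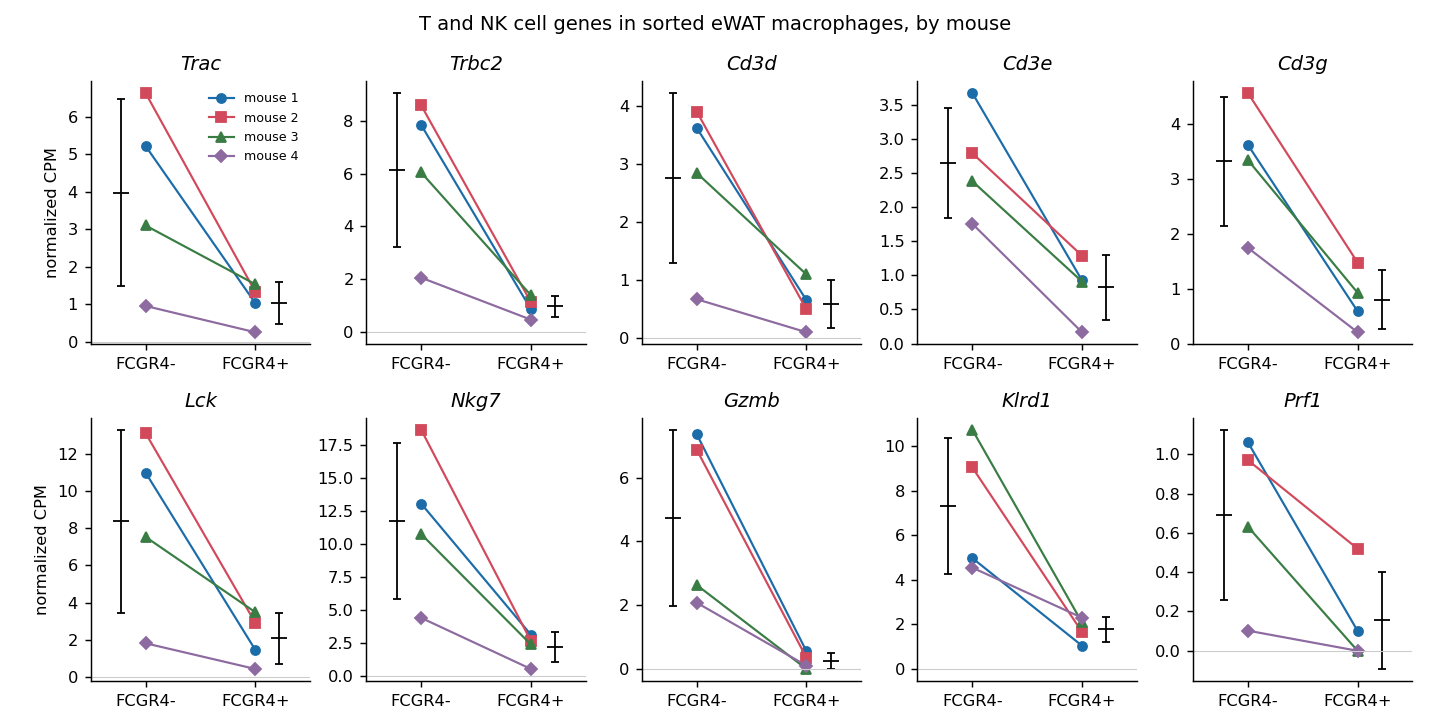
Normalized CPM of each of the 10 genes in FCGR4- and FCGR4+ libraries, with 1 line per mouse joining its 2 libraries, a linear axis for each gene, and black bars for the mean ± SD of 4 mice. Every line runs downward to the FCGR4+ library, and mouse 4 lies at the bottom in both populations for most genes but not for *Klrd1*.

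*Nkg7* (chr7:43437073-43438249, + strand), a granule membrane protein of NK cells and cytotoxic T cells, had 3.15, 2.68, 2.41 and 0.560 CPM in FCGR4+ and 13.1, 18.6, 10.8 and 4.42 CPM in FCGR4- libraries. The groups did not overlap, and at -2.47 its log2 fold change had the smallest SE of the 10 (0.245). *Gzmb* (chr14:56258838-56262260, - strand) had 0.556, 0.353, 0 and 0.104 CPM in FCGR4+ and 7.36, 6.88, 2.63 and 2.08 CPM in FCGR4- libraries. Its log2 fold change, -4.62 (SE 0.693), was the lowest of the 10, and the groups did not overlap. In counts, the FCGR4+ libraries held 33, 17, 0 and 5 of *Gzmb* and the FCGR4- libraries held 479, 234, 146 and 142, so the size of the fold in mouse 3 rests on a count of 0.

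*Klrd1* (chr6:129591782-129598775, + strand) had 1.04, 1.66, 2.09 and 2.30 CPM in FCGR4+ and 4.98, 9.05, 10.8 and 4.55 CPM in FCGR4- libraries, with a log2 fold change of -2.02 (SE 0.321). The groups did not overlap. Alone among the 10 genes it was highest in mouse 4 within the FCGR4+ population, and the log2 ratio of mouse 4 was -0.97 against -2.42 to -2.22 in the others. *Prf1* (chr10:61297833-61304680, + strand) had 0.101, 0.519, 0 and 0 CPM in FCGR4+ and 1.06, 0.970, 0.631 and 0.102 CPM in FCGR4- libraries. In FCGR4+ libraries it held 6, 25, 0 and 0 counts, and its log2 fold change of -3.36 carried the largest SE of the 10 (1.15). For *Prf1* the log2 fold change was -2.46 without mouse 3 and -2.38 by edgeR's newer method, and without mouse 2 it had too few counts to be tested.

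Among all tested genes, 3.02% had every FCGR4+ library below every FCGR4- library. The same separation was seen in 6 of the 10 genes (*Trbc2*, *Cd3e*, *Cd3g*, *Nkg7*, *Gzmb* and *Klrd1*). In the other 4 the overlap came from the low FCGR4- library of mouse 4 (*Trac*, *Cd3d*, *Lck* and *Prf1*).

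Levels can be set against each other between genes only per length. Per kilobase of the deposited gene length, *Nkg7* led in FCGR4- macrophages with 12.8 CPM per kb ± 6.44 (SD, n = 4), followed by *Trbc2* with 8.86, *Klrd1* with 5.73, *Trac* with 4.26, *Gzmb* with 3.30, *Lck* with 2.86, *Cd3d* with 1.52, *Cd3g* with 1.01, *Cd3e* with 0.650 and *Prf1* with 0.267 CPM per kb. The steps from *Nkg7* to *Trbc2*, *Lck* to *Cd3d*, *Cd3g* to *Cd3e* and *Cd3e* to *Prf1* exceeded the spread over mice of the paired difference, and the other neighbors did not differ beyond it. In FCGR4+ macrophages *Nkg7* again led with 2.41 CPM per kb ± 1.24 (SD, n = 4) and *Prf1* was last with 0.0600. There the steps from *Trac* to *Lck* and from *Lck* to *Cd3d* exceeded the spread. *Gzmb* moved from rank 5 to rank 9, with 0.176 CPM per kb ± 0.174 (SD, n = 4), while the other 9 genes kept their order among themselves.

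Summed over *Trac*, *Trbc2*, *Cd3d*, *Cd3e* and *Cd3g*, the mean log2 ratio of FCGR4+ to FCGR4- was -2.23 ± 0.460 (SD, n = 4 mice). Over *Nkg7*, *Gzmb*, *Klrd1* and *Prf1* it was -2.40 ± 0.356 (SD, n = 4 mice). The log2 ratio of receptor to cytotoxic genes therefore changed by 0.16 ± 0.688 (SD, n = 4 mice) between populations, and it was lower in FCGR4+ in 2 mice and higher in 2, with values of -0.11, 0.56, 0.87 and -0.67 in mice 1 to 4. No shift between the receptor and the cytotoxic genes beyond the spread over mice was seen.

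**Figure D2:**
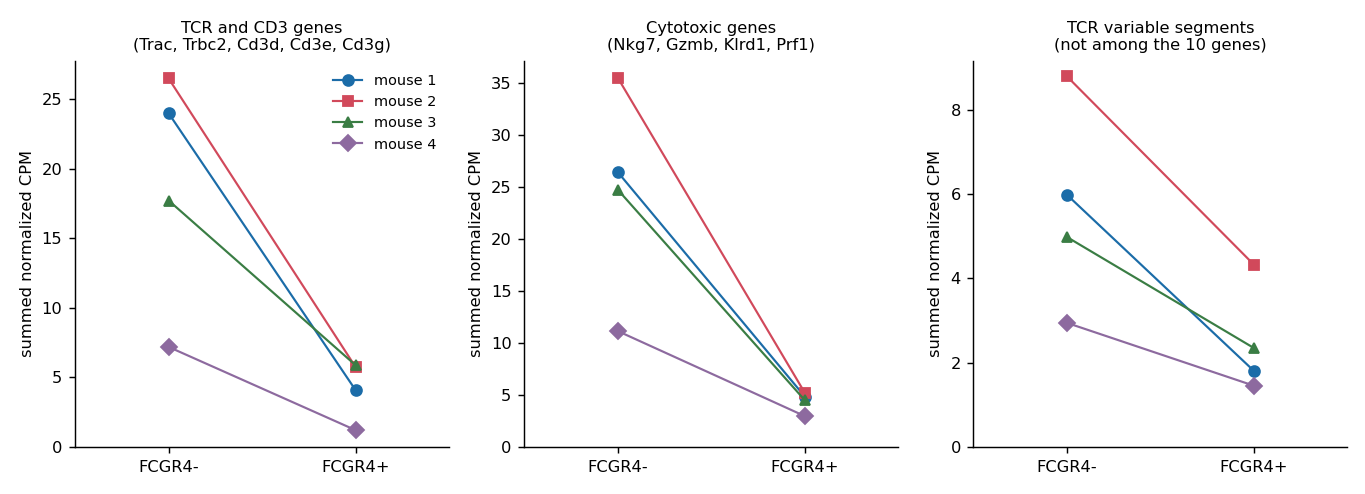
Summed normalized CPM in FCGR4- and FCGR4+ libraries of the TCR and CD3 genes (left), the cytotoxic genes (middle) and the T cell receptor variable segments (right), with 1 line per mouse on linear axes from 0. Each line falls from FCGR4- to FCGR4+, by a mean log2 ratio of -2.23, -2.40 and -1.22 in turn, and mouse 4 has the lowest value in every column.

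Receptor chains were also counted outside the constant regions. Of 170 variable segment genes of the α, β, γ and δ chains, 123 had a count in some library. Of these, 96 were lower in FCGR4+ in CPM summed over the libraries, with no share of all genes taken for this tally. The summed level of the segments was 1.80, 4.32, 2.35 and 1.45 CPM in FCGR4+ and 5.98, 8.79, 4.98 and 2.94 CPM in FCGR4- libraries of mice 1 to 4. It was lower in 4 of 4 mice with a mean log2 ratio of -1.22 ± 0.345 (SD, n = 4). Only 4 segments had counts enough for the test, and 0 of the 4 passed edgeR's quasi-likelihood test, with 1 at an unadjusted P under 0.05 and 0 by DESeq2. With pairs shared by *Trbc1* and *Trbc2* counted at each, the constant regions of the αβ receptor (*Trac*, *Trbc1* and *Trbc2*) summed to 1.74 to 4.21 CPM in FCGR4+ and 4.65 to 22.2 CPM in FCGR4- libraries. Those of the γδ receptor summed to 0.0207 to 0.842 CPM and 1.02 to 1.68 CPM, and were lower in FCGR4+ in 4 of 4 mice, the lowest being under the floor of 3 counts.

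Beyond the 10 genes, 7 lists held 109 other genes of T cells, NK cells and type 2 innate lymphoid cells, of which 88 were tested. By edgeR's quasi-likelihood test with Benjamini-Hochberg adjustment, 5 of the 88 (5.68%) were lower in FCGR4+ and 0 were higher, against 1.19% and 0.0819% of all tested genes. At an unadjusted P under 0.05, for which the share of all genes was not taken, there were 40 lower and 3 higher. DESeq2 called 36 lower and 3 higher, against 4.87% and 1.12% of all genes. Of the 88, 74 had a log2 fold change below 0, against 50.3% of all genes, and their median was -1.84. Of the 88, 36 reached 10 counts in all 4 FCGR4- libraries but not in all 4 FCGR4+ libraries. These 36 could enter the test through the FCGR4- group alone. This tally, the medians by list and the P values of these 36 are therefore a description, and nothing is read from them. *Ctsw*, *Prkcq* and *Tbx21*, given below, are among the 36. *Il2rb*, the β chain of the receptors for IL-2 and IL-15, was 1.29 ± 0.554 CPM in FCGR4+ and 7.20 ± 2.86 CPM in FCGR4- (SD, n = 4), with a log2 fold change of -2.48 (SE 0.268, adjusted P = 0.0162). *Cd2*, an adhesion receptor of T and NK cells, fell by 2.25 on the log2 scale (SE 0.378, adjusted P = 0.0666), and the lymphocyte protease gene *Ctsw* fell by 2.32 (SE 0.374, adjusted P = 0.0602). *Prkcq*, the kinase PKC-θ downstream of the T cell receptor, fell by 2.95 (SE 0.538, adjusted P = 0.0812). The fifth, *Il1rl1*, the receptor of IL-33, fell by 1.56 (SE 0.198, adjusted P = 0.0300) and is also a gene of mast cells.

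Of the other genes of the receptor complex, 0 of 4 tested passed edgeR's test (3 at an unadjusted P under 0.05 and 2 by DESeq2), and the median was -2.45. *Trbc1* stood at a log2 fold change of -2.03 (adjusted P = 0.202), *Cd247*, the ζ chain, -2.65 (adjusted P = 0.167) and *Trdc*, the δ chain constant region, -2.88 (adjusted P = 0.415). Among 18 coreceptor and surface genes 1 passed, *Cd2* (13 lower by DESeq2, against 4.87% of all genes), and the median was -2.59. *Cd4* stood at -2.99 (adjusted P = 0.232), *Cd8a* at -3.95 (adjusted P = 0.185) and *Cd8b1* at -1.90 (adjusted P = 0.327). The *Cd8a* libraries did not overlap between populations, with 0 to 22 counts in FCGR4+ and 38 to 179 in FCGR4-. In the signaling list 1 of 17 passed, *Prkcq* (5 lower and 1 higher by DESeq2), with a median of -1.39, and *Zap70* and *Lat*, the kinase and the adaptor after LCK, stood at -2.12 (adjusted P = 0.598) and -2.28 (adjusted P = 0.140).

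Among 16 other cytotoxic and effector genes 1 passed, *Ctsw*, and the median was -0.51. DESeq2 called 2 lower and 2 higher, against 4.87% and 1.12% of all genes. *Gzma* stood at -1.28 (adjusted P = 0.686) and *Ifng* at -2.80 (adjusted P = 0.488). Of 19 other NK receptor genes 1 passed, *Il2rb* (8 lower by DESeq2), with a median of -1.91, and *Klrb1c*, which encodes NK1.1, stood at -3.81 (adjusted P = 0.171). Of 10 transcription factors 0 passed edgeR's test (6 at an unadjusted P under 0.05 and 5 by DESeq2), and the median was -2.10. *Tbx21*, the T-box factor T-bet, stood at -5.29 (adjusted P = 0.178), and 3 of its FCGR4+ libraries held 0 counts. *Eomes*, *Ncr1* and *Foxp3* had too few counts to be tested: *Eomes* stood at 0.0156 CPM in FCGR4+ and 0.448 CPM in FCGR4- on average, *Ncr1*, the NK receptor NKp46, at 0.0262 and 0.685 CPM and *Foxp3*, the factor of regulatory T cells, at 0.116 and 0.294 CPM. The mean FCGR4+ levels of *Eomes* and *Ncr1* were below the floor of 3 counts.

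**Figure D3:**
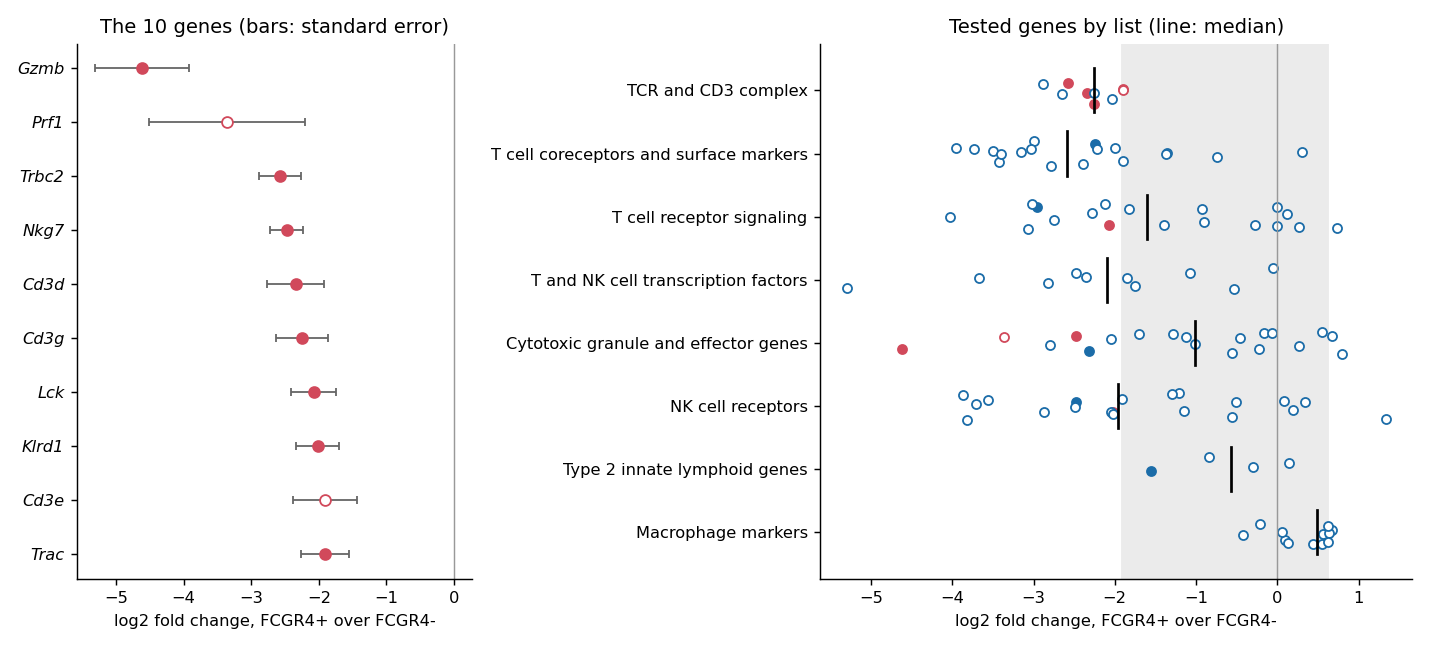
Left, the log2 fold change of each of the 10 genes (FCGR4+ over FCGR4-) with its SE as a bar. Right, the tested genes of each list, with the 10 genes in red and others in blue, genes past the threshold filled and the rest open, a black line at the list median and a grey band from the 5th to the 95th percentile of all tested genes (-1.91 to 0.62). All 10 genes lie at or below -1.90, with *Trac* and *Cd3e* just inside the band. Many open points of the T and NK cell lists lie below the band, whereas the macrophage markers have a median of 0.49.

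Genes of other cells differed between the populations as well, and calls are by edgeR's quasi-likelihood test, in which 1.19% of all genes were called lower. Mast cell and basophil markers summed to 14.5 to 30.5 CPM in FCGR4+ and 392 to 2155 CPM in FCGR4- libraries, and 10 of 10 tested were called lower in FCGR4+. *Mcpt8*, which had too few counts to be tested, was at 0 in all FCGR4+ libraries and held 71, 0, 1 and 13 counts in the FCGR4- libraries of mice 1 to 4. Neutrophil markers summed to 121 to 547 CPM against 382 to 2388 CPM, with 9 of 9 log2 fold changes below 0 and 5 called. B cell markers summed to 244 to 357 CPM against 469 to 2341 CPM, with 7 of 9 log2 fold changes below 0 and 2 called. Most of this sum was the immunoglobulin gene *Ighm*, at 167 to 318 CPM in FCGR4+ and 400 to 2305 CPM in FCGR4- libraries. Of 11 dendritic cell markers, 10 had a log2 fold change below 0 and 4 were called, with a median of -2.60. Their sum, 59.0 to 245 CPM against 82.0 to 203 CPM, was lower in FCGR4+ in 2 of 4 mice only and includes *Bst2*, the exception, with means of 138 CPM in FCGR4+ and 83.3 CPM in FCGR4-. DESeq2 called 10, 6, 6 and 7 genes of these lists lower in turn, against 4.87% of all genes. The part of these cells in the levels of the T and NK cell genes was not tested.

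Within the mice of 1 animal ID prefix (mice 1 and 2), the median log2 fold change of the 10 genes was -2.38, and within the other (mice 3 and 4) it was -2.13 over the 9 with counts enough. Past the threshold were 6 of 10 in the first and 0 of 9 in the second (7 at an unadjusted P under 0.05), when 115 and 72 of all genes passed, and *Gzmb* stood at -3.98 and -5.93. The number called depended on which mice were used: leaving out mouse 1, mouse 2, mouse 3 or mouse 4 left 1, 1, 7 and 3 of the 10 past the threshold, and 78, 118, 162 and 91 of all genes, with *Nkg7* past it each time and every fold change below 0.

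Over the 8 libraries, the level of each gene was set against the mean of the other 9 on the standardized log2 scale. *Nkg7* (r = 0.982), *Trbc2* (r = 0.978) and *Cd3g* (r = 0.973) followed the others most closely, and *Prf1* (r = 0.851), *Gzmb* (r = 0.803) and *Klrd1* (r = 0.729) least. Outside the lists, the genes most like the mean of the 10 were *Ptprcap* (r = 0.985), which encodes a protein bound to CD45 in lymphocytes, *Angptl2* (r = 0.968), *Gimap3* (r = 0.960), a lymphocyte GTPase, *Gpr141b* (r = 0.946), *Hoxd8* (r = 0.945), *Prkab2* and *Atp2a3* (r = 0.940 each), *Heg1* (r = 0.937), *Hip1r* (r = 0.936) and *Hs3st3a1* (r = 0.935). These are Pearson correlations over 8 libraries that share 4 mice and 2 populations, and they are a description. *Ptprcap* stood at 0.766 ± 0.363 CPM in FCGR4+ and 4.42 ± 1.55 CPM in FCGR4- (SD, n = 4).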

How the data were processed

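The authors mapped reads to mm10 with STAR and counted read pairs per gene with featureCounts 1.6.3 on GENCODE M18, and the deposited values are these raw counts. A pair with several mapping places was counted in all of them, without regard to strand, so genes sharing sequence carry uncertain counts. Of the bases of *Cd3e*, 3.31% overlap an exon of another gene. Of the per-sample columns, 0 were left out. Total counts were 35992794 to 66856746 per library.

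The 17095 genes with 10 or more counts in 4 or more of the 8 libraries were scaled with TMM factors. Populations were compared in edgeR 4.0.16 under R 4.3.3 by the quasi-likelihood test, blocking on mouse, and a Benjamini-Hochberg adjusted P under 0.1 was the threshold. The SE is the log2 fold change over the square root of F. Pairing comes from the mouse number in the labels. Deviations of same-mouse libraries correlated at 0.291 or more, and those of different mice at a median of -0.0615. Ratios of single genes within a mouse were taken from log2 CPM, the prior count being 2. No 2 libraries of a population were duplicates (chi-square per degree of freedom at least 82.9). Shared sequence was computed with 50-base words on a later GENCODE annotation of mm10, and promoters are RefSeq's. The fit was tested on simulated data.

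The genes and lists were chosen with earlier results of these data known. Named genes are the 10, genes of the 7 T and NK cell lists past the threshold (up to 4 per list, by absolute log2 fold change), 15 fixed genes of these lists, *Fcgr4*, and the 10 most correlated genes outside the lists. Neighbors in the order of levels differed beyond their spread where the mean paired difference exceeded its SD and had 1 sign in 4 mice. Alternatives were DESeq2 1.42.0, no block, scaling by RLE size factors or by library size alone, other filters, 0.05 as the threshold, each mouse left out, each animal ID prefix alone and, chosen after seeing the data, edgeR's newer quasi-likelihood method. Other genes named from the marker lists, and those of the closing observations, were chosen after their values were seen. Other list genes are counted but not reported by name here.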

Additional observations from a re-analysis of the deposited data

Results flagged for a closer look

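The log2 ratio of *Klrd1* (FCGR4+ over FCGR4-) in mouse 4, at -0.97, lay far from those of the other 3 mice, which ran from -2.42 to -2.22. Its gap to the nearest mouse was 0.858 of the whole range of the 4 values. Among the 30 groups of 4 values examined, this was the 1 that stood out, and chance gives about 1 in 20, or 1.5 of 30.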

How the results depend on the processing

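All 10 genes, or those with counts enough, stayed lower in FCGR4+ in every alternative, and their median log2 fold change kept between -2.45 and -2.10. Calls moved more. The table of all genes held 217 past the threshold, 8 of the 10 genes and 5 of the other T and NK cell genes. With no replicate block these were 48, 0 and 0 (at an unadjusted P under 0.05, 9 of 10 and 28 of 88). In mice 1 and 2 alone they were 115, 6 and 4, and in mice 3 and 4 alone 72, 0 and 0 (unadjusted, 7 of 9 and 36 of 91). At a threshold of 0.05 they were 76, 2 and 2. DESeq2 gave 1024 (832 lower and 192 higher, 81.3% lower against 93.5% in edgeR), 10 and 39, no filter on low counts gave 1054, 9 and 40, and the newer quasi-likelihood method, chosen after seeing the data, gave 629, 9 and 22. Leaving out each mouse gave 78 to 162 genes, 1 to 7 of the 10 and 1 to 5 of the others. The numbers were 78, 1 and 1 without mouse 1, 118, 1 and 1 without mouse 2, 162, 7 and 5 without mouse 3, and 91, 3 and 3 without mouse 4. RLE size factors, library size alone and a minimum of 10 counts in every library kept each count within 1.5 times, although the last tested 6 of the 10. Library size alone and no filter moved the median of all genes to -0.09 and -0.16. Fewer mice mean fewer samples, and the cause of the other differences was not tested. As a mean of log2 CPM per gene, the receptor to cytotoxic log2 ratio changed by 0.72 ± 1.01 (SD, n = 4), against 0.16 on summed CPM. At this depth *Prf1* and *Gzmb* held under 10 counts in several FCGR4+ libraries, which limits the precision of their folds.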

Other observations

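Of the 88 other tested genes of the T and NK cell lists, 83 did not pass the test, several of them also known from myeloid cells. *Il7r*, the α chain of the IL-7 receptor, stood at 103 ± 42.7 CPM in FCGR4+ and 89.8 ± 52.1 CPM in FCGR4- (SD, n = 4), a log2 difference of 0.30 (edgeR's quasi-likelihood test, adjusted P = 0.740), and was lower in FCGR4+ in 1 of 4 mice. *Serpinb9*, an inhibitor of granzyme B, stood at 35.1 ± 16.2 and 26.0 ± 18.5 CPM (adjusted P = 0.306 by edgeR, and 0.0921 by DESeq2 with a log2 fold change of 0.55) and was higher in FCGR4+ in 4 of 4 mice, unlike *Gzmb*. *Ctsc*, the protease that activates granzymes, stood at 1834 ± 505 and 1583 ± 659 CPM (adjusted P = 0.604), far above the 10 genes in level. These genes were picked after their values had been seen. Others of the lists went the other way, such as *Stxbp2* and *Unc13d*, lower in FCGR4+ in 4 of 4 mice.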
